A study of Mus musculus with 25 samples.

Results

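The authors' deposited table for DNA methylation in subcutaneous fat of Fzr1-OE offspring lists gene ontology terms, that is, named groups of genes with a shared process, cell part or molecular activity. All 632 of its terms were taken, out of 2237 in the series' 2 fat tables, and they name 119 different genes by symbol. The study asked how raised Fzr1 in the early embryo affects the offspring, and Fzr1 is an activator of the anaphase-promoting complex, a ubiquitin ligase of the cell cycle. Reduced-representation bisulfite sequencing (RRBS) compared 1 library labelled Fzr1-OE with 1 labelled Control, both from BDF1 mice aged 4 months. The labels state that fat of 3 mice per group was collected, and they do not state whether their DNA was pooled, how Fzr1 was raised, or what the Control embryos received. The other groups used below were fat RNA of the same genotypes, strain and age (3 libraries each, known here only through a second table of terms) and RNA of BDF1 blastocysts collected on embryonic day 4.0, with 3 libraries under the label Fzr1-OE and 2 under Control.

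In mammals, DNA methylation sits mainly on cytosines followed by guanine, the CpG dinucleotide. CpG-rich promoters are mostly unmethylated in normal tissue, and methylation of a promoter often goes with a silent gene, while methylation inside a gene body can go with expression. Bisulfite converts unmethylated cytosine, so that sequencing reads methylation base by base, and a reduced-representation library covers mostly CpG-dense parts of the genome. A table of terms is a step removed from such data: it gives, for each term, how many genes are annotated to it, how many of these were selected as differing, and how many would be selected at the overall rate. The sources used here do not state how genes were selected, at which positions methylation differed, or whether it was higher or lower in Fzr1-OE fat, so none of the values below has a direction, and with 1 library a side none has a replicate check. Markers of fat cells could not be checked in the RRBS libraries, because the table holds no levels.

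The promoters of the 5 genes named in the most terms, among those with a promoter in the RefSeq table used (build GRCm38.p6), show the kind of sequence on which such a readout rests. They are printed 5′ to 3′ on the gene's strand, 300 bases from 250 before to 50 after the start, with every CpG in capitals. Where RefSeq lists 2 windows for a gene (Esr1 and Prkg1), the first is shown.
Esr1 (chr10:4611739-4612038, + strand): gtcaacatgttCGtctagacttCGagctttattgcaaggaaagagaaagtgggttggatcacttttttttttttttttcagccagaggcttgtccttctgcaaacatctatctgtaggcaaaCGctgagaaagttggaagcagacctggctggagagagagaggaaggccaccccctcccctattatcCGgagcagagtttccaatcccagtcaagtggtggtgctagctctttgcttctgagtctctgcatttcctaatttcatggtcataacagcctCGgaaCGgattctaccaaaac
Vangl2 (chr1:172027246-172027545, - strand): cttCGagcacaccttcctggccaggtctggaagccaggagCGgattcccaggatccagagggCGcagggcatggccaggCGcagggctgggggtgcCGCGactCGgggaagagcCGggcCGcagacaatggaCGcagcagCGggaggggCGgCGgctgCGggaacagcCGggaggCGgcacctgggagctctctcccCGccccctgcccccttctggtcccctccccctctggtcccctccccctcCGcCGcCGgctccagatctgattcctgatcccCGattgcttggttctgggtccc
Bcl11b (chr12:108003365-108003664, - strand): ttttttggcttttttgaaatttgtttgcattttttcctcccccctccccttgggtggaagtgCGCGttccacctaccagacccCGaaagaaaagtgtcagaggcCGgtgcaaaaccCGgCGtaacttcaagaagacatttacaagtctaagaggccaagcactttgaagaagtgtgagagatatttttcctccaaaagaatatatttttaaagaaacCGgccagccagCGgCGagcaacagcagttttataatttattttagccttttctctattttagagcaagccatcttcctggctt
Nr4a2 (chr2:57123954-57124253, - strand): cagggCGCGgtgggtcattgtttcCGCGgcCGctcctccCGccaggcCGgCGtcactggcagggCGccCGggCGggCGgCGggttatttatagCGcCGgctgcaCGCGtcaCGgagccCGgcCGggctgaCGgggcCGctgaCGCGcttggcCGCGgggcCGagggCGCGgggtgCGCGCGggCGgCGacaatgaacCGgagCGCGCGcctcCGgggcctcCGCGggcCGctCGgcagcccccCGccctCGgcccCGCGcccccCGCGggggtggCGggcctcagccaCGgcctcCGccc
Prkg1 (chr19:31764984-31765283, - strand): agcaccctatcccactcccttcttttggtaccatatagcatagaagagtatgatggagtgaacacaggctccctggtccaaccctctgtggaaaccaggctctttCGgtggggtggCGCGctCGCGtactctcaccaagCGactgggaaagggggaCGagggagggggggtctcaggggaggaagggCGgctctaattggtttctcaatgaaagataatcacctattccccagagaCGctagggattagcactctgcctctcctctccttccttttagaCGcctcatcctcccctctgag
The windows hold 6 CpGs for Esr1, 9 for Bcl11b, 10 for Prkg1, 21 for Vangl2 and 52 for Nr4a2, and their GC content runs from 43.0% for Bcl11b to 81.7% for Nr4a2. The genes at the head of the list therefore do not share 1 type of promoter. The authors' deposited table does not say whether the methylation that selected a gene lay in such a window or elsewhere in the gene.

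Among the 92 named genes with a promoter in that table, the median window held 20.5 CpGs (quartiles 10.75 and 30.0). The median was 13 over 17491 protein-coding genes and 7.0 over 333 genes named by the fat RNA table. The letters CCGG, which read the same on both strands, contain a CpG and are the cut site of the enzyme MspI used in many RRBS protocols, occurred in 83.7% of the named genes' windows and in 61.7% of all. The labels name ultrasound, and no enzyme, for fragmenting this DNA. Windows with the most CpGs belonged to Phf2, a histone demethylase (63), Atl1, a GTPase that shapes the endoplasmic reticulum (53), and Nr4a2. The fewest were in the window of Robo4, a receptor of endothelial cells (2).

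The named genes were also long. On the mm9 loci of the series' expression tables, in which 118 of the 119 symbols were found (3 under an older symbol), their median length was 79.2 kb (quartiles 22.95 and 159.6). All 19427 protein-coding symbols had a median of 16.8 kb, and the 425 located genes of the fat RNA table one of 19.4 kb. Loci over 100 kb made up 40.7% of the named genes, 11.1% of all and 14.8% of the fat RNA genes. Length and CpG content thus move with the choice of genes that all terms below rest on, and their part in the terms was not tested. None of the 118 lay on the X or Y chromosome, where 4.0% and 0.0669% of all protein-coding symbols lie. Chromosome 2 held 12 (10.2% of the named against 8.58% of all), and chromosomes 9 and 19 held 10 each (8.47% of the named, against 5.71% and 3.37% of all).

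**Figure D1:**
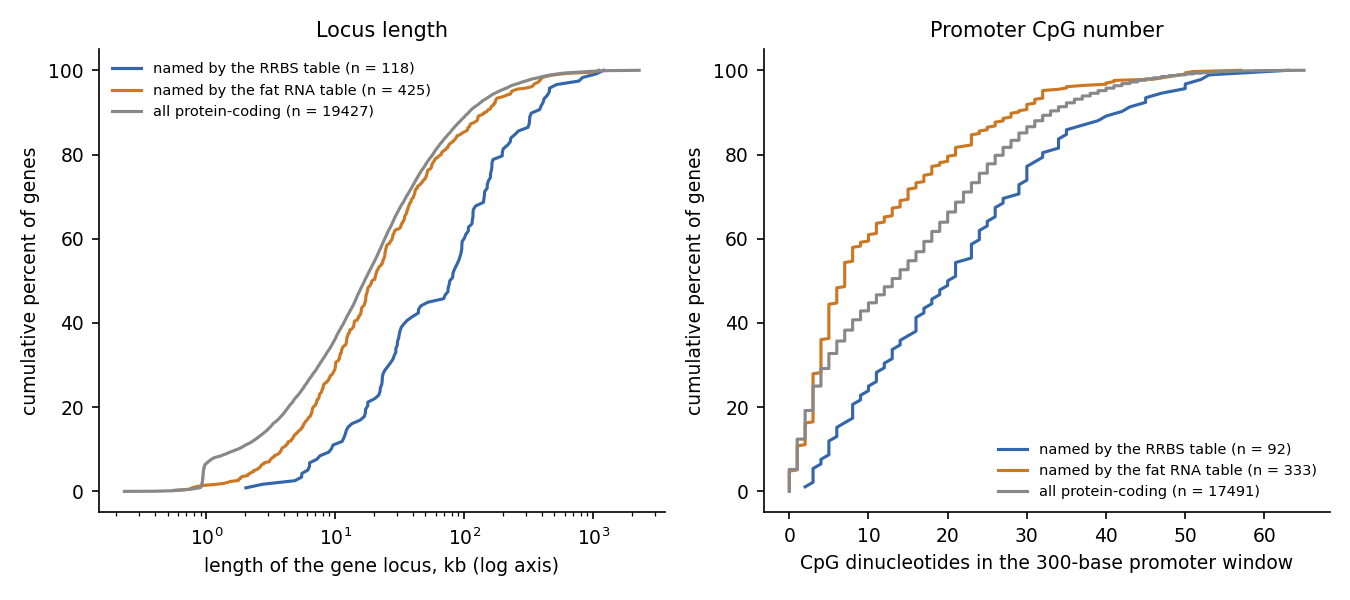
Cumulative percent of genes by locus length in kb (left, log axis) and by the number of CpGs in the 300-base promoter window (right), for genes named by the RRBS table (blue), by the fat RNA table (orange) and for all protein-coding genes (grey). The RRBS curve lies to the right in both panels, with medians of 79.2 kb and 20.5 CpGs.

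Developmental and cell-shape terms led the list. In the authors' deposited table system development held 54 selected genes against 29.32 expected (Fisher p = 5.7e-07, FDR 0.0013), and cell differentiation 48 against 25.68 (FDR 0.0022). Cellular developmental process (50 against 27.54) and multicellular organismal development (56 against 32.76) had the same FDR as cell differentiation. Only terms with p under 0.05 are listed, so a narrow term needs a high ratio to appear, and a very broad one cannot reach it. Narrower terms stood further from expectation: cell morphogenesis involved in differentiation held 18 genes against 5.36, cell migration 22 against 7.93 (FDR 0.0036) and locomotion 25 against 10.26 (FDR 0.0043). Broad terms lay closest to it, as cellular process did with 114 genes against 108.18 (FDR 0.17) and single-organism process with 112 against 99.54 (FDR 0.017). Others this close were cell (111 against 103.34), cell part (111 against 103.16), single-organism cellular process (106 against 93.48) and cellular metabolic process (78 against 68.62). Protein binding held 73 genes against 53.87 (FDR 0.018) and localization 47 against 35.77 (FDR 0.17). Among all terms listed, 80 had an FDR under 0.05, namely 61 biological processes, 16 molecular functions and 3 cell parts. The deposited FDR values equal, within 0.1%, a Benjamini-Hochberg adjustment over 2289 processes, 286 cell parts and 422 functions, so that 21.1% of 2997 terms were listed at p under 0.05 and 2.67% passed the FDR.

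These terms overlap heavily. The 632 terms rest on 340 different sets of genes, and the 80 with an FDR under 0.05 on 63. As many as 202 terms rest on 1 selected gene, from terms with a median of 4 annotated genes, and none of them passed the FDR. Among processes none could: with 1 of 1 annotated genes selected, the Fisher p was 0.00668 and the FDR 0.10. Another 80 rest on 2 genes, of which 7 passed.

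**Figure D2:**
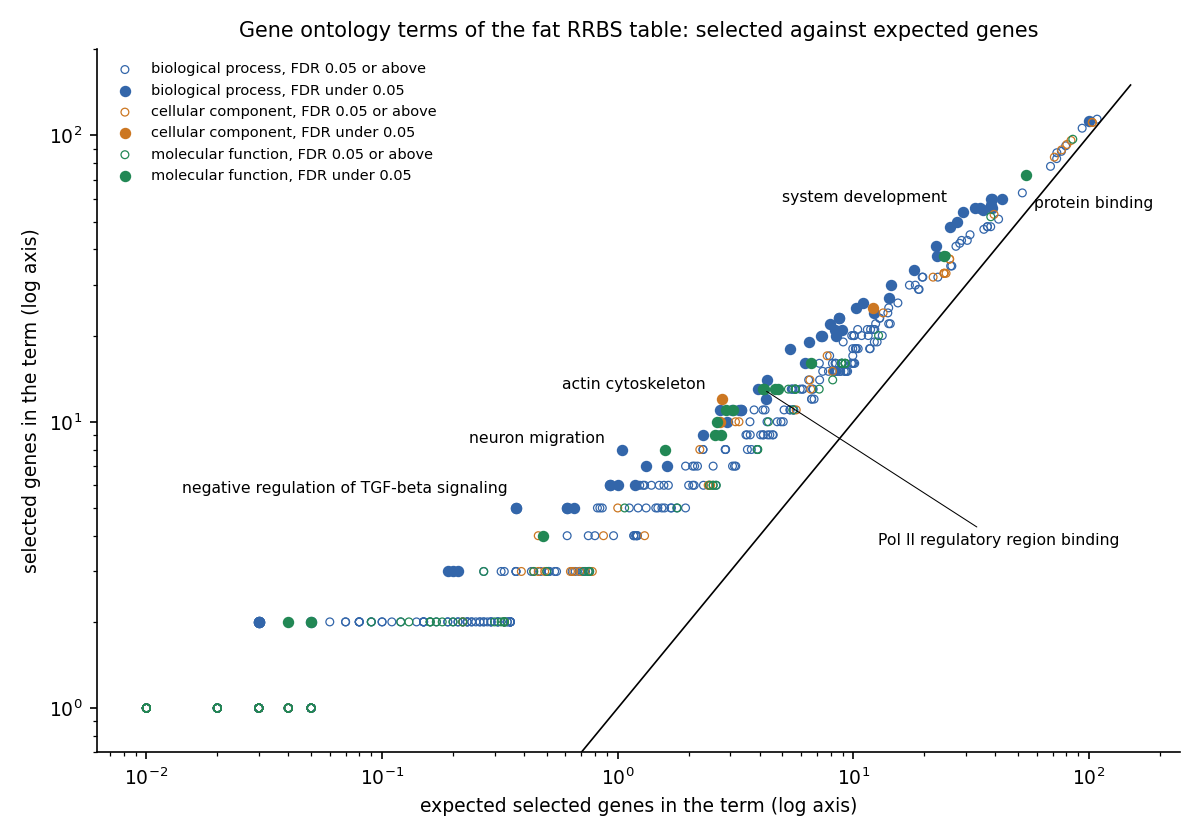
Each point is 1 of the 632 terms, with the expected number of selected genes on the x axis and the observed number on the y axis (both log), coloured by category and filled where the FDR is under 0.05. The line marks equality, and all points lie above it, since the table lists only terms with p under 0.05; terms resting on 1 gene form the lowest row.

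A few genes recur throughout. Dlc1, a GTPase-activating protein, was named in 186 terms (29.4%) and in 46 of the 80 with an FDR under 0.05. Esr1, the estrogen receptor alpha, was named in 154 terms, Vangl2, a core protein of planar cell polarity, in 151, and Bcl11b, a zinc finger factor of T cells and neurons, in 137. Nr4a2, an orphan nuclear receptor needed for dopamine neurons, was named in 132, Prkg1, the cGMP-dependent protein kinase, in 131, and Tgfb1i1, a focal adhesion adaptor that binds nuclear receptors, in 130. The others named in 100 or more were Hoxa13, Bcl9l, Kank1, Flt1, Nrp2, Iqsec1, Ldlrad4, Sh3bp4, Plekhg6, Arhgap25, Prdm16, Rgs3, Arhgap1 and Atxn1, from 122 terms down to 100. Such counts follow how many terms a gene is annotated to as well as whether it was selected. The median gene was named in 51 terms, and 21 genes in 100 or more.

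**Figure D3:**
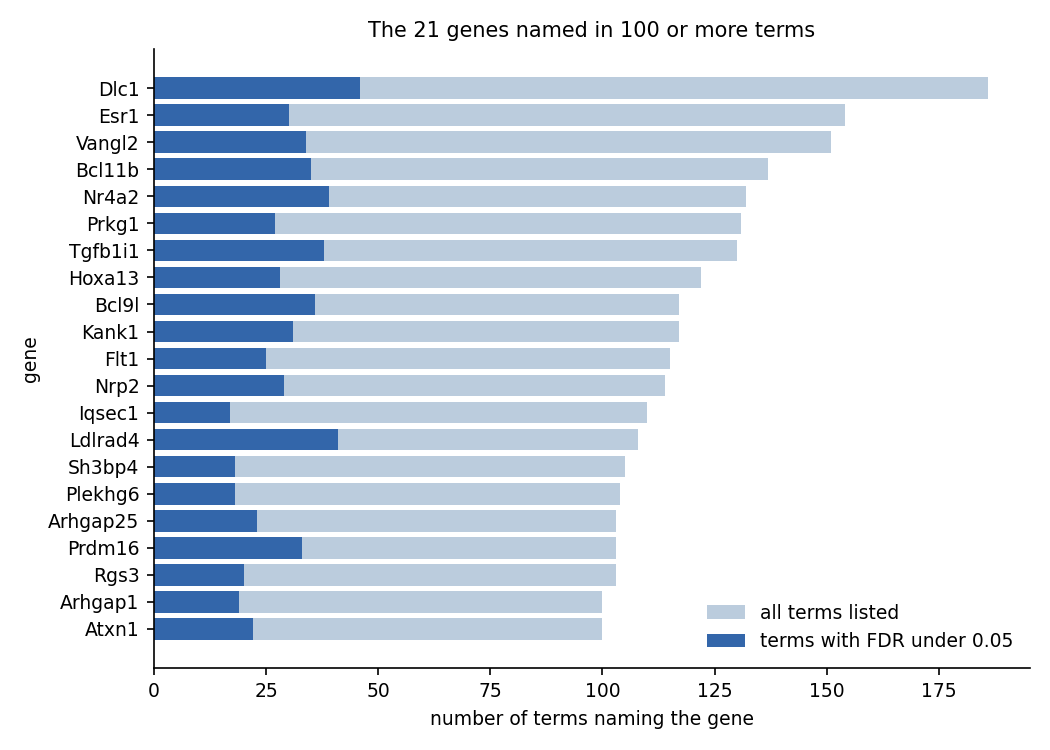
Number of terms naming each of the 21 genes found in 100 or more terms, as bars from 0 for all terms listed (light) and for terms with an FDR under 0.05 (dark). Dlc1 leads both counts, with 186 and 46.

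Regulators of small GTPases formed the first distinct group. Small GTPases are molecular switches for the cytoskeleton and for membrane traffic, turned off by activating proteins (GAPs) and on by exchange factors. The authors' deposited table gave 11 genes in regulation of GTPase activity against 2.71 expected (FDR 0.0085), and 8 in GTPase activator activity against 1.58 (FDR 0.018). The 8 are annotated as activators for different families: Agap1 acts on Arf, Sipa1 on Rap, Tbc1d4 on Rab proteins and Rgs3 on the alpha subunits of heterotrimeric G proteins, beside Dlc1, Arhgap1, Arhgap25 and Plekhg6. Iqsec1, an Arf exchange factor, Sh3bp4 and Prkg1 complete the 11. Tbc1d4, also called AS160, is known for its part in insulin-driven glucose uptake. It was the only member of the insulin and IGF list named. That is 1 of 51 members in the expression tables, or 1.96%, beside 0.486% of all symbols. The same 11 genes also make up the terms regulation of purine nucleotide catabolic process, regulation of nucleotide catabolic process and regulation of nucleoside metabolic process. Of 5 terms with exactly this set, 4 had an FDR under 0.05. GTPase regulator activity and nucleoside-triphosphatase regulator activity held 11 genes each, against 2.87 and 3.07, with Rgl1 in the place of Prkg1.

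Genes of the actin cytoskeleton were the leading cell part, with 12 genes against 2.77 expected in the authors' deposited table (p = 2.1e-05, FDR 0.0060). They include Synpo and Synpo2, which bundle actin in kidney podocytes, neurons and muscle, Add2, an adducin that caps filaments, Mtss1, a membrane-bending actin binder, Parva, a link between integrins and actin, the unconventional myosin Myo18a and the septin Sept11. Actin filament bundle assembly held 6 genes against 0.93 (FDR 0.022), and 5 of these 6 are among the 12. Only Dlc1 is shared between the actin cytoskeleton term and the 11 GTPase regulators. Of a list of 126 actins, myosins and contractile genes, Myo18a alone was named (0.794%, near the 0.486% of all symbols), and of 30 skeletal muscle markers none. The terms actomyosin (4 genes against 0.46), adherens junction (10 against 3.16) and anchoring junction (10 against 3.27) did not pass (FDR 0.064 each), while cell projection did, with 25 against 12.16 (FDR 0.037).

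Transforming growth factor beta (TGF-beta) signalling stood furthest above expectation among terms with at least 5 selected genes. This pathway runs from a secreted ligand through receptor kinases to SMAD proteins that act on DNA, and it restrains the making of fat cells in culture. Negative regulation of TGF-beta receptor signalling held 5 of 55 annotated genes against 0.37 expected in the authors' deposited table (FDR 0.0043), a ratio of 13.5. The 5 are Ldlrad4 and Pmepa1, membrane proteins that keep receptor-activated SMADs from the receptor, Prdm16, Tgfb1i1 and Bcl9l, a coactivator of beta-catenin. Response to TGF-beta held 7 against 1.32 (FDR 0.022), adding Ltbp4, which stores latent TGF-beta in the matrix, and Zfhx3, a homeodomain factor. SMAD binding held 4 of 73 annotated genes (FDR 0.040), all among those 7. No ligand, receptor or SMAD was named: in the list of TGF-beta and BMP signalling Ltbp4 alone was named of 59 members (1.69%). With 0.486% of all symbols named, a list of this size would hold under 1 named gene at that share. The absence of ligands, receptors and SMADs therefore says nothing particular about the pathway. The broader term regulation of TGF-beta receptor signalling held the same 5 genes against 0.61, a ratio of 8.20, and negative regulation of transmembrane receptor serine/threonine kinase signalling held them against 0.65. The group of 5 appears as 6 separate terms, 5 of them with an FDR under 0.05, so that these terms are 1 set of genes counted repeatedly.

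DNA-binding transcription factors formed another group. RNA polymerase II regulatory region sequence-specific DNA binding held 13 genes against 4.14 expected in the authors' deposited table (FDR 0.018). They are the Hox genes Hoxa13, Hoxd3 and Hoxd4, the nuclear receptors Esr1 and Nr4a2, the nuclear factor I genes Nfic and Nfix, the zinc finger genes Bcl11b, Glis1 and Ikzf3, and Erg, Gata5 and Zfhx3. Of 39 Hox genes with a locus 4 were named, or 10.3%, beside 0.486% of all symbols. These were the 3 above and Hoxa3, in 2 of the 4 Hox clusters. The loci of Hoxd3 and Hoxd4 overlap, and whether 1 region selected both is not known. Hox genes set position along the body axis, and fat depots keep distinct Hox patterns in the adult. Hoxa3 and Hoxd3 alone carry glossopharyngeal nerve morphogenesis, in which 2 of 4 annotated genes were selected (FDR 0.018). RNA polymerase II regulatory region DNA binding held the same 13 against 4.16, and the transcriptional activator term 10 against 2.64 (FDR 0.019). DNA binding as a whole held 20 against 12.79 (FDR 0.16), the ligand-activated factors 2 against 0.33 (FDR 0.19) and embryonic morphogenesis 10 against 4.3 (FDR 0.14), none of which passed. From the list of Sox, Fox, Tbx, Gata, Runx and helix-loop-helix factors 3 of 182 were named (Nfix, Gata5 and Nfic), or 1.65%. From 59 nuclear receptors and co-regulators 2 were named, or 3.39%.

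Neuronal terms were numerous. Neuron migration held 8 of 155 annotated genes against 1.04 expected in the authors' deposited table (p = 9.5e-06, FDR 0.0036), a ratio of 7.69. The genes include Robo3, an axon guidance receptor of the Roundabout family, Nrp2, a receptor of the guidance cue semaphorin, and Adgrl3, an adhesion receptor of synapses. The others are Nav1, a microtubule navigator, Shtn1, which couples actin flow to adhesion in growing axons, and Lhx6, Nr4a2 and Prkg1. The cell part axon held 10 genes against 2.71 (FDR 0.037), and 5 genes are in both. Cell morphogenesis involved in neuron differentiation held 9 against 3.65 and did not pass (FDR 0.14). In the axon guidance list 4 of 78 members were named, or 5.13%: Nrp2, Robo3, Robo4 and Sema4b. Potassium and sodium channels gave 1 of 115 (0.87%, Kcnh3) and synapse and transmitter receptor genes 1 of 148 (0.676%, Gria1, an AMPA receptor subunit), near the 0.486% of all symbols with a locus that were named. Neuronal words stand in the names of 52 terms, of which 5 passed the FDR. This is a smaller share than the 12.7% of all listed terms that passed.

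Endothelial markers had the highest named share of the lists reported here. From a list of 20 such markers 3 were named (15%, beside 0.486% of all symbols), namely Flt1, Erg, an ETS factor of endothelial identity, and Robo4. The other markers of this short list were not named, so the share rests on 3 genes. Robo4 lies 2021 bases from Robo3, also named, and whether 1 region selected both is not known. Flt1, a receptor for vascular endothelial growth factor (VEGF), and Nrp2, its co-receptor, are 2 of the 6 genes annotated to VEGF-activated receptor activity (FDR 0.033 in the authors' deposited table). Angiogenesis held 8 genes against 2.87 and did not pass (FDR 0.12), nor did circulatory system development with 12 against 6.65 (FDR 0.21). Outflow tract septum morphogenesis held 3 of 28 annotated genes (Nrp2, Parva and Vangl2) with an FDR of 0.036. Wnt signalling held 7 genes against 2.54 and did not pass (FDR 0.15). Establishment or maintenance of cell polarity held 6 against 1.24 and did not pass either (FDR 0.051). The narrower establishment of epithelial cell polarity did, with 3 against 0.21 (FDR 0.047).

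**Figure D4:**
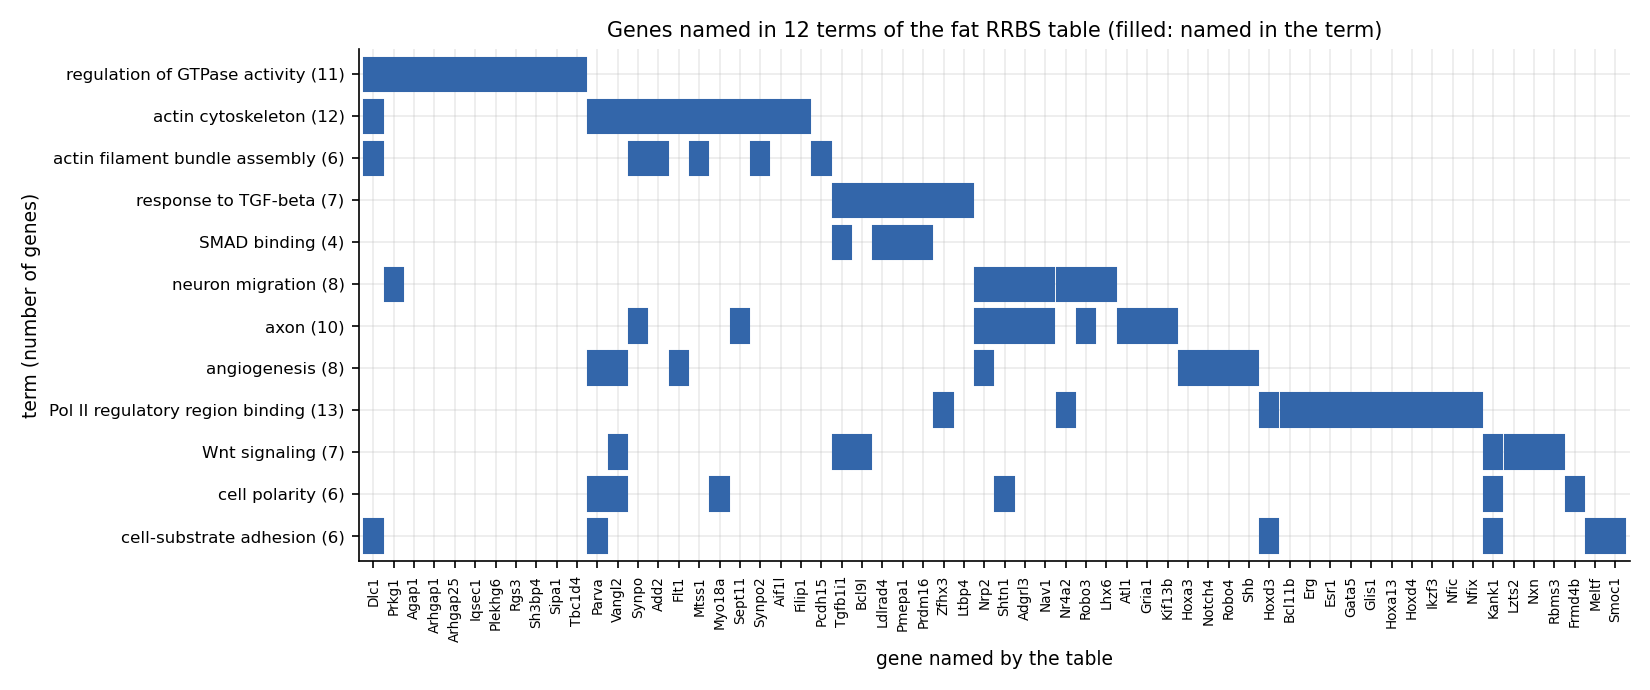
Rows are 12 terms chosen after the table was seen, and columns the 62 genes they name, with a filled cell where the term names the gene. The GTPase, TGF-beta and DNA-binding rows share few genes with one another, while the actin pair, the TGF-beta and SMAD pair and the neuron migration and axon pair share 5, 4 and 5.

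The lists of fat metabolism held no or 1 named gene. None of 43 adipocyte identity and adipogenesis genes, 74 lipid genes, 56 glucose and energy genes or 51 adipokine, cytokine and inflammation genes was named, and neither was any of 20 genes of the DNA methylation machinery, 78 imprinted genes or 74 genes of the anaphase-promoting complex and cell cycle. With 0.486% of all symbols named, lists of this size would hold under 1 named gene each at the overall share, so these zeros are near the background and say nothing particular about fat genes. The 1 named gene of 28 in the thermogenic list was Prdm16, a factor that specifies brown and beige fat cells, and it alone carries positive regulation of brown fat cell differentiation (1 of 7 annotated genes, FDR 0.23). Aqp2, a water channel of the kidney, carries glycerol transport alone (1 of 5, FDR 0.20), and Atp8a1, a phospholipid flippase, carries all 4 terms with lipid, fatty acid or sterol in the name. No term name held insulin, glucose or glycogen, and none held cell cycle or division.

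The remaining lists with a named gene lay between 0.539% and 2.38%, beside 0.486% of all symbols, protein-coding or not. The selected share implied by the expected numbers was 0.626% to 0.668% by category. Solute carriers (0.539%) and chromatin genes (0.581%) lay below that share. They gave 3 of 134 other homeobox genes (Zfhx3, Lhx6 and Tshz1), 2 of 116 cadherins and protocadherins (Cdh4 and Pcdh15), 2 of 149 genes of G-protein and cyclic nucleotide signalling (Prkg1 and Rgs3) and 2 of 371 solute carriers (Slc12a5, which exports chloride from neurons, and Slc6a21). A single member each came from 72 Wnt genes (Vangl2), 42 Hedgehog and Notch genes (Notch4), 85 receptor tyrosine kinase and MAP kinase genes (Flt1) and 172 chromatin genes (Prdm16). None was named of 61 calcium genes, 192 integrin, collagen and matrix genes or 34 immune cell markers, although Il1r1, an interleukin receptor outside these lists, was named.

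Some genes were named beside a close neighbour, and the table does not tell whether 1 region selected both. In mm9 coordinates, 5 pairs lay within 10 kb: Hoxd3 and Hoxd4, whose loci overlap (chr2:74550050-74586328 and chr2:74560035-74567216), Aldh3b3 and Aldh3b2, 1889 bases apart on chromosome 19, Robo4 and Robo3, 2021 apart on chromosome 9, Ddx19b and Aars, 2090 apart on chromosome 8, and Tgm1 and Rabggta, 2384 apart on chromosome 14. Of all protein-coding symbols, 39.1% have the next one within 10 kb, whether or not it is named. That share is no background rate for pairs in which both genes are named, and such a rate was not worked out. At least 1 pair was held whole by 87 of the 632 terms and by 28 of the 80 with an FDR under 0.05. The pair Hoxd3 and Hoxd4 was in 20 of those 28 and Robo3 and Robo4 in 15. In 4 terms the pair was all there was, each time Aldh3b2 and Aldh3b3, aldehyde dehydrogenases of 1 gene cluster, and 1 of these, aldehyde dehydrogenase [NAD(P)+] activity, had 2 of 7 annotated genes and an FDR of 0.034 in the authors' deposited table.

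Few genes were named for both methylation and RNA in fat, at a rate close to that of either selection. The fat RNA table named 449 genes in 1605 terms, and 3 genes were in both tables, or 2.52% of the 119 and 0.668% of the 449. By their expected numbers for processes, the RNA table rests on 2.47% of genes selected and the RRBS table on 0.668%, so the overlap lies near both background rates. They were Esr1, Plekhg6 and Scml4, a Polycomb-related gene. Esr1 was in 154 terms of the RRBS table and 196 of the RNA table, of which 105 passed the FDR there. The tables list 96 terms in common (15.2% of 632 and 5.98% of 1605), 11 of them with an FDR under 0.05 in both. By totals inferred from the FDR values, 21.1% of 2997 RRBS terms and 24.7% of 6500 RNA terms were listed. The 15.2% thus lies below the listed share for RNA, and the 5.98% below that for RRBS. The totals differ, so how many terms could be shared is not known. Of the 96, 29 shared no gene and 53 shared 1. Cell migration is an example: it held 22 genes against 7.93 for RRBS and 45 against 29.35 for RNA in the authors' deposited tables, and no gene is in both of these lists. An adjustment over 6500 terms gives 1585 of the 1605 deposited RNA FDR values within 0.1%, and on that inferred number 564 RNA terms, or 8.68%, passed, beside 2.67% for RRBS. Immune, inflammatory or cytokine words stood in 201 RNA terms, 89 with an FDR under 0.05, and in 10 RRBS terms, none of which passed. TGF-beta or SMAD stood in 14 RRBS terms, 9 of which passed, and in 4 RNA terms, none of which passed. Neuronal words stood in 52 RRBS and 31 RNA terms, of which 5 and 4 passed, and chromatin or estrogen words in none that passed in either table. Because the selected shares differ, counts of terms are not on 1 scale, and differences in names were not tested.

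The blastocyst libraries give RNA levels of these genes on embryonic day 4.0 only. They express trophectoderm and inner cell mass markers, with Krt8 between 939 and 1526 FPKM (a level scaled for transcript length and library size) and Nanog, a pluripotency factor, between 38.8 and 49.6. Fzr1 RNA was 12.7, 15.5 and 17.1 FPKM in the libraries labelled Fzr1-OE and 16.5 and 16.5 in Control, a log2 fold change of -0.13 (SE 0.16, adjusted p = 0.71, limma). The Fzr1-OE values span the Control values, so this RNA did not separate the libraries by label, and directions below are those of the library labels.

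Of the 118 named genes located in the expression tables, 40 (33.9%) had a mean of at least 1 FPKM, against 44.3% of all protein-coding symbols and 17.4% of the fat RNA genes. Another 22 (18.6%) were listed at 0 in all 5 libraries, against 27.4% of all protein-coding symbols. Of the 21 genes named in 100 or more terms, 3 reached 1 FPKM and 7 were listed at 0 throughout, namely Esr1, Bcl11b, Prkg1, Tgfb1i1, Hoxa13, Flt1 and Ldlrad4. Most leading genes of the methylation table were thus under 1 FPKM at this stage.

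Among the 40, limma on log2(FPKM + 1) called 1 gene at a Benjamini-Hochberg adjusted p under 0.05 over all loci, or 2.5%, beside 4.21% of the 9439 loci tested; for loci lower in Fzr1-OE the share was 1.92%. The gene was Arhgap1, a GAP for Cdc42, with 35.9, 34.6 and 31.1 FPKM in Fzr1-OE and 50.01 and 46.6 in Control. All Fzr1-OE values lay below both Control values, and its log2 fold change was -0.50 (SE 0.11, adjusted p = 0.042). The call was lost without Fzr1-OE replicate 2 or 3 or either Control replicate (adjusted p = 0.092 to 0.20) with no filter or a replicate block (adjusted p = 0.22), and with no intensity trend (adjusted p = 0.18).

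The genes of next smallest p, chosen after their values were seen, did not pass. Aars, the alanyl-tRNA synthetase, had 16.8, 16.1 and 20.7 FPKM against 26.7 and 27.5 in Control (adjusted p = 0.061). Sema4b, a semaphorin, had 1.80, 1.72 and 1.36 against 3.14 and 5.40 (adjusted p = 0.082). Iqsec1 had 1.34, 1.05 and 1.35 against 2.59 and 3.19 (adjusted p = 0.12). In these 3 genes the groups do not overlap and Control was the higher. Smoc1, a secreted matrix-associated protein, lay the other way, with 2.14, 2.11 and 1.89 against 0.296 and 0.975 (adjusted p = 0.11). The groups did not overlap in 20 of the 40 genes, or 50%, beside 37.4% of all loci tested. Lower values in Fzr1-OE were seen for 28 of the 40 (median log2 fold change -0.13), while 49.3% of all loci tested were lower (median 0.005). With no filter on low values, 50 of the 118 named genes were lower and 46 higher. At an unadjusted p under 0.05 there were 13 genes, 32.5%, beside 19.7% of all loci.

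**Figure D5:**
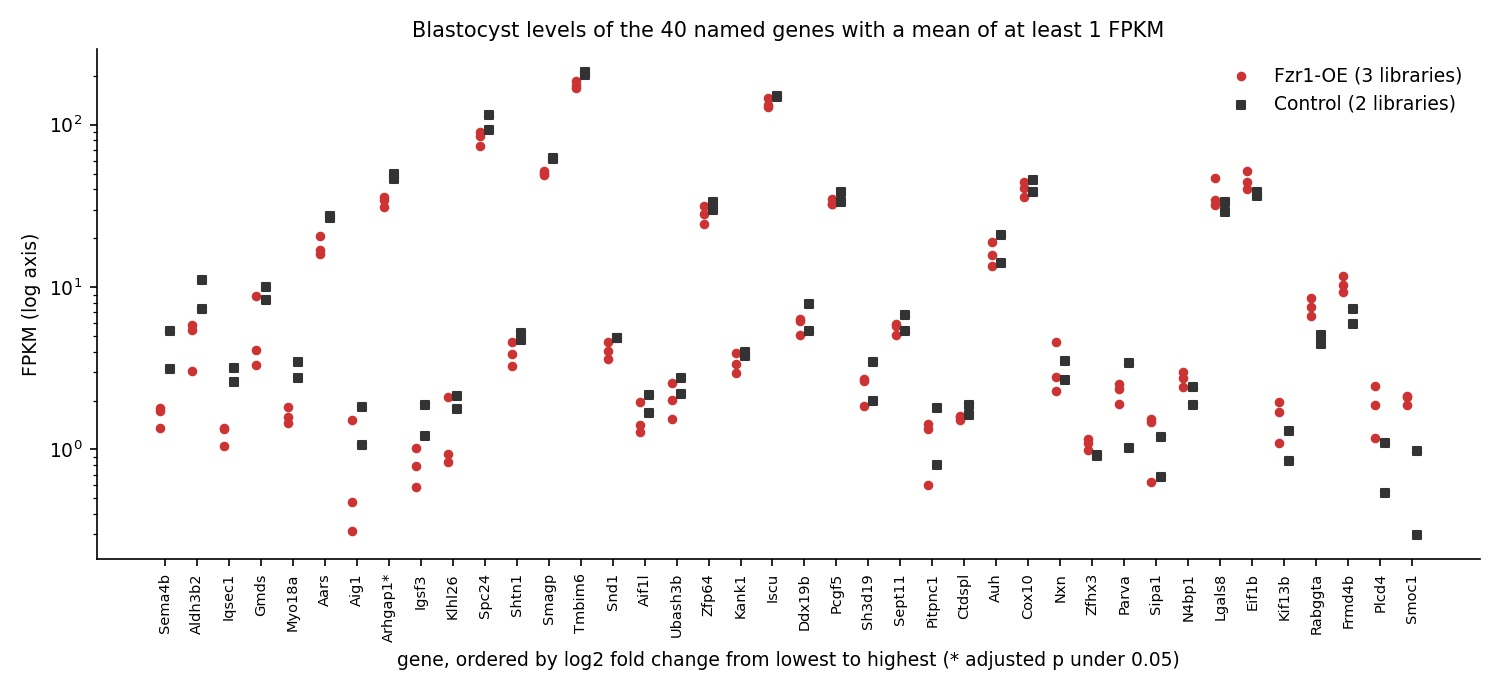
FPKM (log axis) of the 40 named genes with a mean of at least 1 FPKM in each blastocyst library, Fzr1-OE as red circles and Control as black squares, ordered by log2 fold change. Arhgap1, marked with an asterisk, is the gene that passed, with Fzr1-OE values from 31.1 to 35.9 below Control values of 46.6 and 50.01.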

How the data were processed

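The fat files that the authors deposited are tables of gene ontology terms, each with a Fisher p-value, an FDR and its annotated, selected and expected genes as numbers, per the file headers. They were read as they stand, and ratios are selected over expected. The RRBS depth, the selection of genes and the set of all genes considered were not stated in the sources used here. For blastocysts the authors deposited FPKM per locus with confidence bounds, per the file headers. The build is mm9, per the submitters' processing notes, which also list, giving no step for any, Bismark, Trim Galore 0.6.4, Bowtie2 2.3.5, HISAT2 2.1.0, Cuffdiff, Cufflinks 2.2.1, DiffBind 2.12.0 and deepTools 3.5.0.

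Sample titles gave the groups. Blastocyst FPKM, with 1 added and log2 taken, went into limma 3.58.1 under R 4.3.3 with an intensity trend, for loci averaging at least 1 FPKM, and p-values were adjusted over all of these loci. This scale understates fold changes of low genes. Nothing in the labels shows that replicates are separate cultures or animals, and the p-values then reflect sample-to-sample spread that may be technical. Reading each confidence bound as 2 Poisson standard deviations gave 9324167 to 10483442 fragments per library, for counting error only. Tested on simulated data for this comparison (9439 loci), the fit found 91% of changes of 2-fold, 100% of those of 4-fold, and 15 loci that had not changed. Changes were planted on the log2(FPKM + 1) scale, only at loci averaging at least 5 FPKM. These shares therefore do not cover lower loci, and only 18 of the 40 named genes tested pass a filter of 5 FPKM. Coordinates count from 1.

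Terms named are the 6 of smallest p per category, the highest and lowest ratios among terms with at least 5 selected genes, and those holding most members of a gene list, with others chosen after the table was seen. Genes named are those in the most terms, up to 6 members per list (31 lists, 1 of which is not reported here), genes in both fat tables and those passing limma. The members and lists were chosen with earlier results of these data known. Alternatives were stricter term thresholds, a pseudocount of 0.1, other filters, quantile normalization, no trend, a replicate block and leaving out each library. Python 3.11.15 and pandas 2.3.3 were used.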

Additional observations from a re-analysis of the deposited data

How the results depend on the processing

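The number of terms depends on the threshold: of 632 listed, 80 had an FDR under 0.05, 232 a p under 0.01, 296 at least 5 selected genes and 422 at least 10 annotated genes. Genes shared with the fat RNA table numbered 2 or 3 in all 3 alternatives. Counting neighbours within 10 kb as 1 gene, chosen after seeing the data, left 426 of 430 terms with 2 or more genes. The blastocyst count of 1 called gene became 0 with no filter, 0 with no intensity trend, 0 with a replicate block and 2 with a filter of 5 FPKM (Arhgap1 and Aars), and 0 to 1 when a library was left out; these filters also change how many loci are tested, and the cause was not tested for the other settings. All loci called numbered 397, against 395 with a pseudocount of 0.1, 427 with quantile normalization, 452 with a filter of 5 FPKM, 30 with no filter, 41 with no trend, 47 with a replicate block and 87 to 350 without 1 library. Where leaving out 1 library left the Control group with 1 sample, that sample was assumed to vary like the others. Same-numbered libraries did not deviate together (r = -0.039 and 0.027), so the replicate block has no basis in the pairing; under it the log2 fold change of Arhgap1 was -0.45. Fzr1 stayed between -0.22 and -0.02 in all 11 alternatives. Promoter CpGs per 100 bases had a median of 6.83 in the whole window and 8.0 in its last 150 bases. The main limits are 1 RRBS library per group, no positions, no direction and no depth for methylation, and terms that share genes.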
